A study of Homo sapiens with 24 samples.

Results

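The mRNAs of 9 factors of nonsense-mediated decay (NMD) were followed through proximity labelling of RNA around 3 proteins of cytoplasmic granules. The members are UPF1, UPF2, UPF3A, UPF3B, SMG1, SMG5, SMG6, SMG8 and SMG9, chosen by name as the UPF and SMG families. They are 9 of the 57992 genes in the deposited count table, and all 9 were among the 14360 genes with enough counts to be tested.

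NMD destroys mRNAs on which translation ends too early. The helicase UPF1 is recruited to such mRNAs, UPF2 and the paralogs UPF3A and UPF3B link it to the exon junction complex left by splicing, and the kinase SMG1, held in check by its partners SMG8 and SMG9, phosphorylates it. Phosphorylated UPF1 then attracts the endonuclease SMG6 and the adaptor SMG5, which brings in general decay enzymes. In human cells the mRNAs of several of these factors, among them UPF1, UPF2, UPF3B, SMG1, SMG5 and SMG6, are known to be NMD targets in their own right.

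The cells were HEK293T, a human embryonic kidney line, stably expressing TIA1-miniSOG, G3BP2-miniSOG or miniSOG-DDX6. TIA1 and G3BP2 are stress granule proteins and DDX6 is a helicase of P-bodies, the cytoplasmic granules that hold decay factors and repressed mRNAs. The flavoprotein miniSOG makes singlet oxygen in blue light, which oxidises guanines of RNA close by, and propargylamine attaches to the oxidised bases so that this RNA can be tagged with biotin and pulled out on streptavidin. Labelled captures are RNA eluted from the beads after 10 mM propargylamine for 5 min and 15 min of light at 24 mW/cm2. No-probe captures came from cells that got light but no propargylamine, and inputs are labelled RNA kept back before the beads. All 3 lines were treated with 0.5 mM sodium arsenite, which halts translation and brings on stress granules, for 40 min before the probe and 1 hr in all. The DDX6 line was also labelled unstressed, without arsenite. Each of these 4 combinations of line and treatment had 2 labelled captures, 2 no-probe captures and 2 inputs, which makes 24 libraries. Every bait has its own line, so bait and line cannot be told apart, and nothing in the labels says that replicates were separate cultures. The p-values below therefore measure the spread between samples as labelled, which may be technical.

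Labelled captures had 3344960 to 5919467 counts, no-probe captures 1129510 to 3472565 and inputs 2511043 to 3825961. The 9 members together took 2535 to 5426 of these counts in a labelled capture, 701 to 1893 in a no-probe capture and 1442 to 2439 in an input. Mitochondrial transcripts made up 1.7% to 8.5% of labelled captures, 18.8% to 30.2% of no-probe captures and 23.7% to 31.6% of inputs. Levels are therefore given as counts per 1000000 (CPM) after scaling with TMM factors (trimmed mean of M values), which keeps the typical gene level between library kinds, so every change below is relative to that gene. Scaling to total counts instead lifts the median enrichment over all tested genes by 0.46 to 0.65 on the log2 scale. The HEK293 markers VIM, NEFM, NEFL and INA were present in every library (VIM at 85.9 to 219 CPM). PAX2, also listed for HEK293, was lower, at 0.52 to 12.5 CPM. Of the markers of other cell types, CD3E had no count, and PTPRC and KRT5 had at most 1 count in any library. PECAM1 had at most 2 counts and ALB at most 6. The fibroblast marker COL1A1 was also present, at 7.01 to 32.5 CPM.

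Enrichment is the log2 fold change of labelled capture over input, and probe dependence that of labelled capture over no-probe capture. Both come from edgeR's quasi-likelihood test over all 14360 genes, with Benjamini-Hochberg adjustment and 0.05 as the threshold for a call. They share the labelled captures and are not independent of each other.

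In the inputs the members' mRNAs differed in level by severalfold per unit of length. Per kilobase of the longest annotated transcript, the median over the 8 inputs was highest for SMG5, at 38.3 CPM per kb (range 28.9 to 41.7), followed by UPF3B at 25.7 (22.2 to 28.5) and UPF1 at 22.3 (17.6 to 25.9). The ranges of UPF3B and UPF1 overlapped, while that of SMG5 lay above both. The other 6 stood lower, with medians from 9.26 CPM per kb for SMG8 to 5.36 for SMG6, and each of their ranges overlapped that of its neighbour in the order. Raw counts behind a single value ran from 23, for UPF3A, to 1292, for SMG5.

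Of the 36 enrichments (9 members in 4 combinations), 9 passed the test as higher in the labelled capture, 6 as lower and 21 did not pass. For TIA1, 1 member was higher, against 19.4% of all tested genes, and 2 were lower, against 16.4%. For G3BP2, 4 were higher (20.8% of all genes) and 1 was lower (17.5%). For DDX6 under arsenite the counts were 2 higher (20.4%) and 1 lower (17.3%), and for unstressed DDX6 2 higher (22.9%) and 2 lower (19.6%). With 9 members, counts of 1 to 4 are too few to set apart from the shares of all genes, and no difference from those shares was tested. The members' median enrichments were 0.22, 0.23, -0.17 and -0.01 in that order, beside all-gene medians of 0.02, -0.01, -0.02 and 0.01. The mRNAs did not move as a group: UPF2 and SMG8 were on the high side in all 4 combinations and SMG9 on the low side in all 4.

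**Figure D1:**
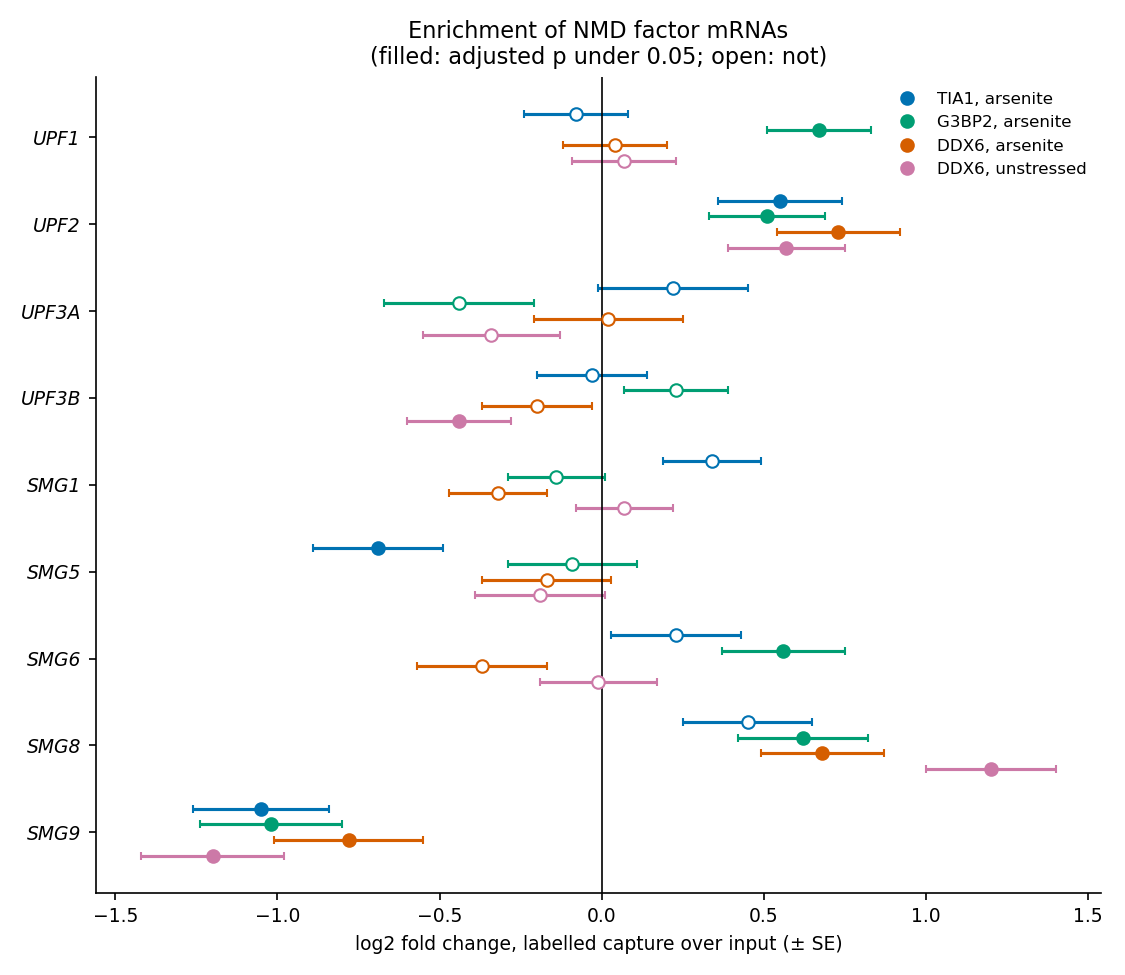
Enrichment of each NMD factor mRNA, as log2 fold change of labelled capture over input (x axis), with 1 row of points per member and 1 colour per combination of bait and treatment. Each value compares 2 with 2 libraries, and bars are SE from the model of all 24 libraries, whose groups share an estimate of spread. Filled points passed an adjusted p of 0.05: UPF2 lies right of 0 in all 4 combinations, SMG8 right of 0 with 3 of 4 filled, and SMG9 left of 0 in all 4.

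Probe dependence gave a similar tally, with 10 of 36 values higher, 6 lower and 20 not passing. The members called higher were UPF2 and SMG1 for TIA1 (23.7% of all genes were called higher), UPF1, UPF2, UPF3B and SMG6 for G3BP2 (23.7%), and UPF2 and SMG8 both for DDX6 under arsenite (22.5%) and for unstressed DDX6 (25.1%). Those called lower were SMG5 and SMG9 for TIA1 (21.7%), UPF3A and SMG9 for G3BP2 (21.7%), and SMG9 alone for DDX6 under arsenite (20.2%) and for unstressed DDX6 (23.1%). Higher in both comparisons were UPF2 for TIA1 (17.7% of all genes), UPF1, UPF2 and SMG6 for G3BP2 (17.6%), UPF2 and SMG8 for DDX6 under arsenite (17.7%) and the same pair for unstressed DDX6 (19.9%). UPF2 was the member higher in all 4 enrichments, as were 10.4% of tested genes, and SMG9 the one lower in all 4, as were 5.7%. UPF2 was higher in all 8 comparisons, as were 9.24% of tested genes, and SMG9 lower in all 8, as were 4.53%.

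**Figure D2:**
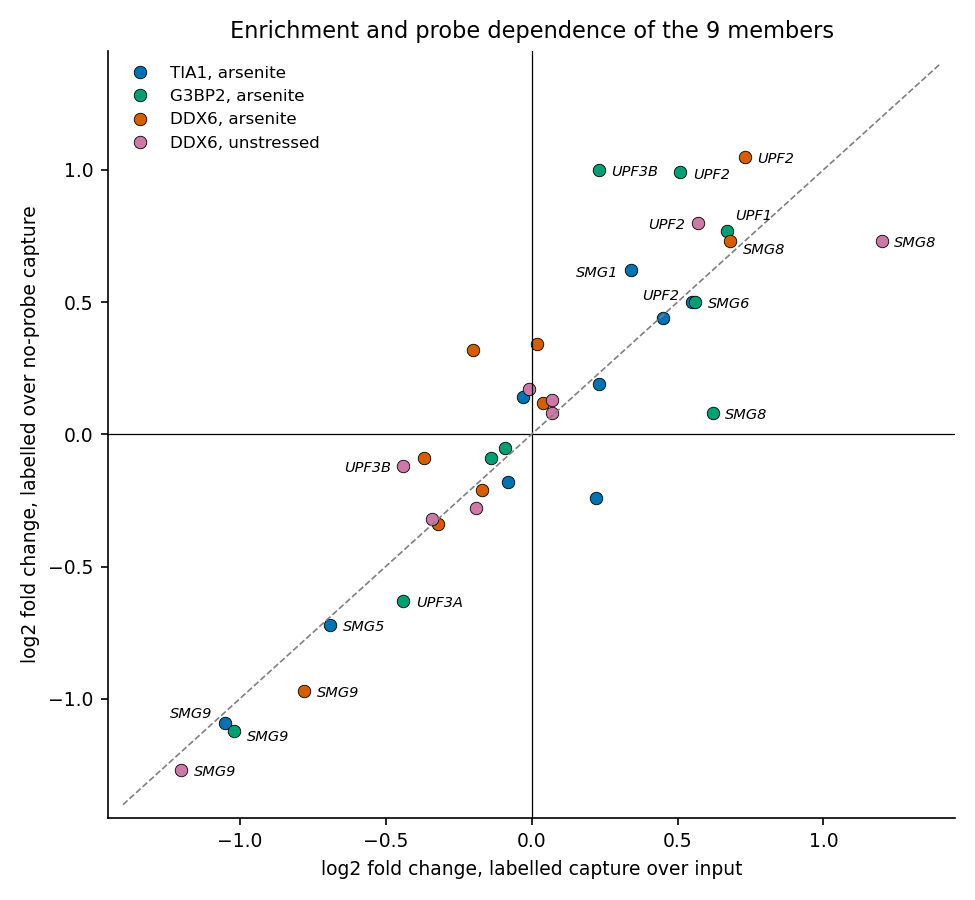
Enrichment (x axis, log2 fold change over input) against probe dependence (y axis, log2 fold change over the no-probe capture) for the 9 members in the 4 combinations, with equal values on the dashed line. Named points passed at least 1 of the 2 tests; UPF3B for G3BP2 lies far above the line (0.23 against 1.00), and SMG8 for G3BP2 (0.62 against 0.08) and unstressed DDX6 (1.20 against 0.73) lie below it.

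In the no-probe captures no member differed from the inputs past the threshold. The no-probe capture over the input, named background here, passed for 0 of 9 members in each combination by edgeR's quasi-likelihood test, in which 0.0139% of all genes passed for TIA1, 0.167% for G3BP2, 0% for DDX6 under arsenite and 0.0139% for unstressed DDX6. At an unadjusted p under 0.05 the members were 0 for TIA1, 3 for G3BP2 (UPF2, UPF3B and SMG8), 1 for DDX6 under arsenite (UPF3B) and 1 for unstressed DDX6 (SMG8). UPF3B for G3BP2 came nearest, at a background of -0.78 ± 0.20 (SE; adjusted p = 0.0817, edgeR quasi-likelihood). DESeq2 called that value (adjusted p = 0.0496) and no other background of a member. With a block on replicate number, edgeR called 1 member for G3BP2. Median backgrounds over the 4 combinations ran from -0.42 for UPF3B to 0.24 for SMG8.

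UPF1, the helicase on which the pathway turns, was enriched with G3BP2. Its labelled captures stood at 143 and 161 CPM in G3BP2 cells, against 95.9 and 80.9 CPM in no-probe captures and 96.3 and 94.1 CPM in inputs. Both labelled captures lay above all 4 other libraries of that line. The enrichment was 0.67 ± 0.16 and the probe dependence 0.77 ± 0.17 (adjusted p = 0.00138 and 0.000477, edgeR quasi-likelihood). In TIA1 cells UPF1 read 106 and 136 CPM in labelled captures and 116 and 138 CPM in inputs, and these ranges overlapped. Enrichments there and in both DDX6 conditions lay between -0.08 and 0.07. Their 95% intervals were -0.41 to 0.25 in TIA1 cells, -0.29 to 0.36 in DDX6 cells under arsenite and -0.25 to 0.39 in unstressed DDX6 cells. Scaled to total counts, which moves all genes up, the TIA1 value turned to 0.58.

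UPF2, the adaptor between UPF1 and the UPF3 proteins, was the only member called higher in all 8 comparisons of labelled captures by edgeR's quasi-likelihood test. By the DESeq2 Wald test it passed in 6 of the 8, missing for G3BP2 enrichment (0.47, adjusted p = 0.0597) and TIA1 probe dependence (0.46, adjusted p = 0.0674). In TIA1 cells it stood at 64.8 and 78.4 CPM in labelled captures, 49.6 and 51.1 CPM in no-probe captures and 44.5 and 53.0 CPM in inputs. In G3BP2 cells the values were 84.2 and 65.5 CPM in labelled captures, 43.0 and 30.9 CPM without probe and 42.9 and 62.9 CPM in inputs. In each of these lines the labelled captures lay above the other 4 libraries, although the lower labelled capture of G3BP2 (65.5 CPM) and its higher input (62.9 CPM) came close. DDX6 cells under arsenite gave 72 and 81.8 CPM in labelled captures, 32.2 and 41.3 CPM without probe and 45.9 and 46.4 CPM in inputs. Unstressed DDX6 cells gave 75.1 and 67.4 CPM, 40.6 and 41.0 CPM, and 47.7 and 48.3 CPM in the same order of libraries. Here the labelled captures stood clear of the rest, and both no-probe captures lay below both inputs.

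The enrichments of UPF2 were 0.55 ± 0.19 for TIA1, 0.51 ± 0.18 for G3BP2, 0.73 ± 0.19 for DDX6 under arsenite and 0.57 ± 0.18 for unstressed DDX6, with adjusted p of 0.0212, 0.0248, 0.00234 and 0.0118 (edgeR quasi-likelihood). Its probe dependences were 0.50 ± 0.19, 0.99 ± 0.20, 1.05 ± 0.20 and 0.80 ± 0.19, and passed at adjusted p of 0.0308, 0.000213, 7.37e-05 and 0.000908. These enrichments sat between the 75.5th and the 84.7th percentile of all genes, so many other mRNAs were enriched more. With 2 libraries a side, single libraries carry some of the calls. The enrichment for TIA1 no longer passed without the labelled capture replicate 2 (0.43) or the input replicate 1 (0.46), that for G3BP2 without the labelled capture replicate 1 (0.36) or the input replicate 1 (0.30; 0.84 without the input replicate 2), and that for unstressed DDX6 without the labelled capture replicate 1 (0.52), the input replicate 1 (0.60) or the input replicate 2 (0.61). The probe dependence for TIA1 no longer passed without the labelled capture replicate 2 (0.38), the no-probe replicate 1 (0.52) or the no-probe replicate 2 (0.56). Only for DDX6 under arsenite did both calls of UPF2 hold on leaving out any single library of that comparison.

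**Figure D3:**
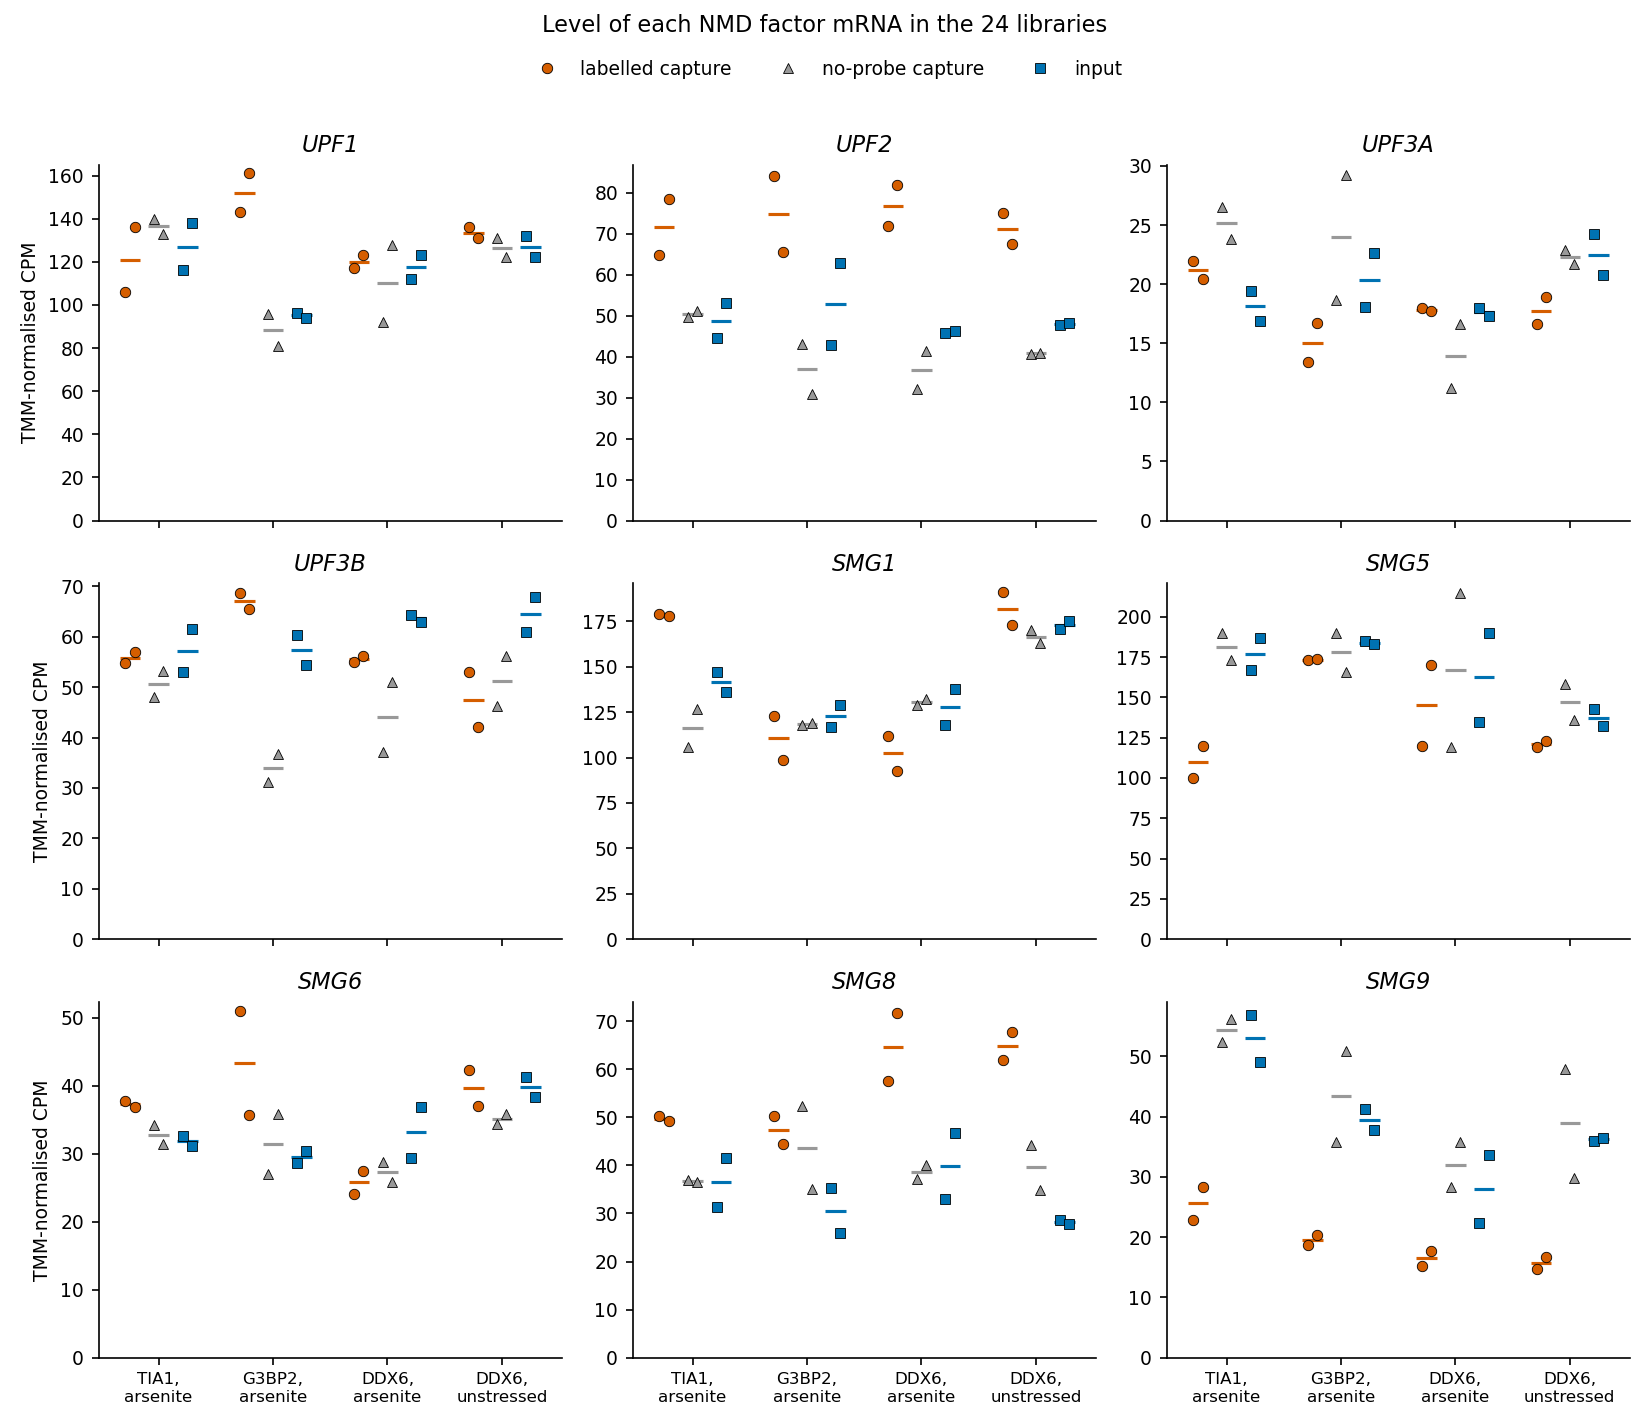
TMM-normalised CPM (y axis, from 0) of each NMD factor mRNA in the 24 libraries, by bait and treatment, with labelled captures as circles, no-probe captures as triangles and inputs as squares; each point is 1 library and each line the mean of 2. The circles of UPF2 lie above and those of SMG9 below the other symbols in all 4 combinations, and the circles of UPF1 stand apart for G3BP2 at 143 and 161 CPM.

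UPF3A and UPF3B are paralogs that dock on the exon junction complex, and UPF3B is the one known to act in most human NMD. Their mRNAs did not follow each other. UPF3B had its highest labelled captures with G3BP2, at 68.7 and 65.5 CPM, against 31.1 and 36.7 CPM without probe and 60.3 and 54.3 CPM in inputs. The no-probe captures were the low libraries here, and the labelled captures lay above both other kinds. The probe dependence was 1.00 ± 0.19 (adjusted p = 8.26e-05, edgeR quasi-likelihood) and the enrichment 0.23 ± 0.16 (adjusted p = 0.292). In unstressed DDX6 cells UPF3B stood at 52.9 and 42.1 CPM in labelled captures, 46.3 and 56.2 CPM without probe and 60.9 and 67.9 CPM in inputs, and the enrichment of -0.44 ± 0.16 passed as lower (adjusted p = 0.0306). That call was lost without the labelled capture replicate 2 (-0.26), the input replicate 1 (-0.47) or the input replicate 2 (-0.32), and with total counts the value was 0.02. In DDX6 cells under arsenite the probe dependence of UPF3B passed only with the no-probe replicate 2 left out (0.63, adjusted p = 0.0337).

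UPF3A was the member with the fewest counts, 23 to 149 per library. In G3BP2 cells it read 13.4 and 16.7 CPM in labelled captures, 18.7 and 29.2 CPM without probe and 18.1 and 22.6 CPM in inputs, so that both labelled captures lay below the others. The probe dependence of -0.63 ± 0.25 passed (adjusted p = 0.0368, edgeR quasi-likelihood), but not without the labelled capture replicate 1 (-0.43) or the no-probe replicate 2 (-0.29), and the enrichment of -0.44 ± 0.23 did not pass (adjusted p = 0.128). Of the 100-base windows of the UPF3A transcript, 25.7% also occur in another annotated gene, mainly the pseudogenes UPF3AP1 and UPF3AP2. Those 2 and UPF3AP3 held at most 2, 5 and 4 counts in any library and were not tested. Within libraries, the ratio of UPF3B to UPF3A counts ran from 2.22 to 5.14 in labelled captures, from 1.26 to 3.30 in no-probe captures and from 2.40 to 3.65 in inputs, so the kinds overlapped.

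SMG1, the kinase that phosphorylates UPF1, has by far the longest mRNA of the set, 16115 bases, and 7 annotated pseudogene copies on the same chromosome. The copies matter because reads from an exon they share can be credited to a copy or dropped, depending on a setting that is not given in the sources used here. Coding exon 26 of SMG1 (chr16:18860667-18860776, minus strand, GRCh38, GENCODE 29) is shown with its stretch in 3 copies, SMG1P1 (chr16:22489206-22489315, plus strand), SMG1P5 (chr16:30270056-30270165, minus strand) and SMG1P7 (chr16:70222371-70222480, minus strand). Each is written 5′ to 3′ in lower case, with the bases that differ from SMG1 in capitals.
SMG1: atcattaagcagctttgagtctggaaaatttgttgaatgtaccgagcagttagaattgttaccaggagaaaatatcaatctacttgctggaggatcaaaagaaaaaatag
SMG1P1: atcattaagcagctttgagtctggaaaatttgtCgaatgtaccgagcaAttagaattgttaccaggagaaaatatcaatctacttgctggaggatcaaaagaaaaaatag
SMG1P5: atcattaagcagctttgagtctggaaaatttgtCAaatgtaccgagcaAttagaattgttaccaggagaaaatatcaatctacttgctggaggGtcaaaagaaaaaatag
SMG1P7: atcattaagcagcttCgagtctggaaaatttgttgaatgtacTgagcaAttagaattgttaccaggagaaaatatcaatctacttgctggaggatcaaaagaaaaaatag
The copies differ from SMG1 at 2, 4 and 3 of 110 bases. Of the 61 coding exons of SMG1, between 17 (SMG1P7) and 28 (SMG1P2 and SMG1P5) match a copy at 95% identity or more, and 11.5% of the 100-base windows of the whole transcript occur unchanged in another gene. The 7 copies together held 11.1% to 30.6% of the counts of SMG1 and copies in labelled captures, 21.8% to 32.2% in no-probe captures and 19.5% to 30.3% in inputs.

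The enrichment of SMG1 passed in none of the 4 combinations by edgeR's quasi-likelihood test. In TIA1 cells it stood at 179 and 178 CPM in labelled captures, 106 and 127 CPM without probe and 147 and 136 CPM in inputs. The labelled captures were the highest and the no-probe captures the lowest libraries, giving an enrichment of 0.34 ± 0.15 (adjusted p = 0.0851) and a probe dependence of 0.62 ± 0.16, which passed (adjusted p = 0.00159). In DDX6 cells under arsenite the labelled captures were instead the lowest libraries, with 112 and 92.5 CPM in labelled captures, 129 and 132 CPM without probe and 118 and 138 CPM in inputs, the other kinds overlapping. The enrichment there was -0.32 ± 0.15 (adjusted p = 0.0955). With the counts of the 7 copies added to SMG1, a sum chosen after seeing the data, that value was -0.37 (adjusted p = 0.0499) and the probe dependence -0.40 (adjusted p = 0.0335, against 0.0726 for SMG1 alone). Of the copies themselves, which hold 0 to 88 counts each per library, SMG1P5 was lower with G3BP2 (-1.89 ± 0.39), and SMG1P3 was lower with DDX6 both under arsenite (-0.92 ± 0.29) and unstressed (-1.41 ± 0.30), while the other copies passed in no enrichment.

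SMG8 and SMG9 form 1 complex with SMG1 and restrain its kinase activity, yet the enrichments of their mRNAs had opposite signs in every combination. SMG8 stood at 62.0 and 67.8 CPM in the labelled captures of unstressed DDX6 cells, 44.3 and 34.9 CPM without probe and 28.6 and 27.8 CPM in inputs. Under arsenite the DDX6 line gave 57.6 and 71.7 CPM in labelled captures, 37.1 and 40.1 CPM without probe and 33.1 and 46.7 CPM in inputs. In both conditions the labelled captures lay above every no-probe capture and input. With G3BP2 SMG8 read 50.2 and 44.5 CPM in labelled captures, 52.4 and 35.0 CPM without probe and 35.3 and 25.9 CPM in inputs. With TIA1 it read 50.2 and 49.3 CPM, 37.0 and 36.5 CPM, and 31.3 and 41.6 CPM in the same order. The labelled captures of G3BP2 lay above the inputs but within the range of the no-probe captures, whereas those of TIA1 lay above both.

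The enrichment of SMG8 was 1.20 ± 0.20 for unstressed DDX6, which lay at the 96.9th percentile of all genes, 0.68 ± 0.19 for DDX6 under arsenite, 0.62 ± 0.20 for G3BP2 and 0.45 ± 0.20 for TIA1. The adjusted p were 1.81e-05, 0.00601, 0.0146 and 0.0823 (edgeR quasi-likelihood), so that TIA1 missed the threshold. Probe dependence passed for unstressed DDX6 and for DDX6 under arsenite (0.73 ± 0.20 each, adjusted p = 0.00297 and 0.00394), but not for G3BP2 (0.08 ± 0.21) or TIA1 (0.44 ± 0.21). The background of SMG8 was 0.47 ± 0.22 for unstressed DDX6 and 0.54 ± 0.23 for G3BP2, neither of which passed. The enrichment for G3BP2 was lost without the labelled capture replicate 1 (0.57) or the input replicate 2 (0.46), and that for DDX6 under arsenite without the input replicate 1 (0.48). The probe dependence for unstressed DDX6 was lost without the no-probe replicate 2 (0.60).

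SMG9 was depleted with every bait. Its labelled captures stood at 22.9 and 28.4 CPM with TIA1, against 52.4 and 56.2 CPM in no-probe captures and 56.9 and 49.1 CPM in inputs. With G3BP2 the labelled captures read 18.7 and 20.4 CPM, against 35.8 and 50.9 CPM without probe and 41.2 and 37.8 CPM in inputs. No labelled capture of these lines reached the level of any no-probe capture or input. DDX6 cells gave 15.3 and 17.7 CPM under arsenite in labelled captures, 28.3 and 35.7 CPM without probe and 22.4 and 33.6 CPM in inputs. Unstressed, they gave 14.7 and 16.7 CPM, 47.9 and 29.8 CPM, and 35.9 and 36.5 CPM in the same order. Again both labelled captures lay below the 4 other libraries in each condition.

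The enrichments of SMG9 were -1.05 ± 0.21 for TIA1, -1.02 ± 0.22 for G3BP2, -0.78 ± 0.23 for DDX6 under arsenite and -1.20 ± 0.22 for unstressed DDX6, with adjusted p of 0.000224, 0.000373, 0.00923 and 6.45e-05 (edgeR quasi-likelihood). They lay between the 9.5th and the 20.4th percentile of all genes. Probe dependences of -1.09 ± 0.22, -1.12 ± 0.23, -0.97 ± 0.24 and -1.27 ± 0.23 passed as well. For DDX6 under arsenite the enrichment was lost without the labelled capture replicate 1 (-0.63) or the input replicate 2 (-0.41), and the probe dependence without the no-probe replicate 2 (-0.74). Scaled to total counts, the arsenite enrichments were -0.40 (TIA1), -0.48 (G3BP2) and -0.23 (DDX6) and no longer passed, while the median of all genes moved up by 0.65, 0.53 and 0.54.

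In the ratio of SMG8 to SMG9 counts within each library, scaling cancels. The ratio shows how the mRNAs moved relative to each other, and not the direction of either alone. There were 1.74 to 4.23 counts of SMG8 per count of SMG9 in the 8 labelled captures, with a median of 3.22. No-probe captures had 0.649 to 1.46 (median 1.02) and inputs 0.550 to 1.48 (median 0.822). No labelled capture fell into the range of the other kinds. By bait, the labelled captures held 2.19 and 1.74 with TIA1, 2.69 and 2.18 with G3BP2, 3.76 and 4.06 with DDX6 under arsenite and 4.23 and 4.05 with unstressed DDX6. Inputs of the DDX6 line under arsenite were themselves high, at 1.48 and 1.39.

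**Figure D4:**
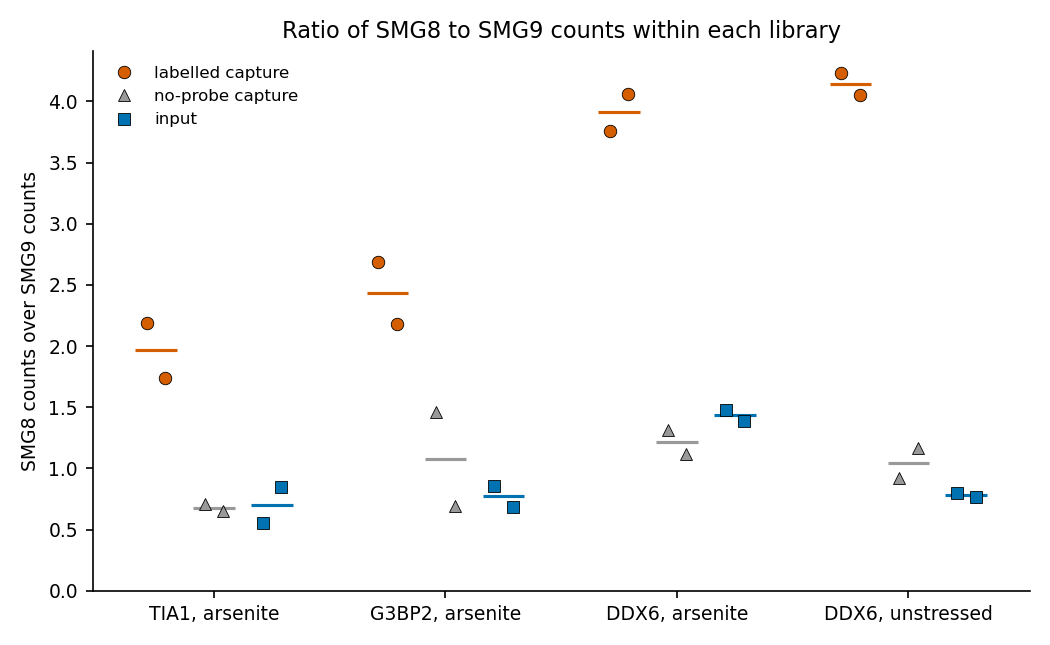
Raw SMG8 counts divided by raw SMG9 counts within each library (y axis, from 0), by bait and treatment; each point is 1 of 2 libraries and each line their mean. The 8 labelled captures sit at 1.74 to 4.23, all above the no-probe captures and inputs, which reach 1.48 at most.

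SMG5, the adaptor that binds phosphorylated UPF1, was lower with TIA1. Its labelled captures stood at 100 and 120 CPM in TIA1 cells, against 190 and 173 CPM without probe and 167 and 187 CPM in inputs. The 4 other libraries of the line all lay higher. The enrichment was -0.69 ± 0.20 (adjusted p = 0.00756, edgeR quasi-likelihood) and the probe dependence -0.72 ± 0.20 (adjusted p = 0.00413). Without the labelled capture replicate 1 the 2 values were -0.55 and -0.58, without the input replicate 2 the enrichment was -0.56, and without the no-probe replicate 1 the probe dependence was -0.61, none of which passed. With total counts the enrichment was -0.03. With the other baits SMG5 lay between -0.19 and -0.09, and its replicates differed most in DDX6 cells under arsenite, with 120 and 170 CPM in labelled captures, 119 and 215 CPM without probe and 135 and 190 CPM in inputs. Replicate 1 was the lower in each of these kinds. Leaving out the no-probe replicate 1 there brought the SMG5 probe dependence to -0.53. That value sets both labelled captures against the 215 CPM of the no-probe replicate 2 alone.

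SMG6, the endonuclease that cuts the target near the premature stop, was higher with G3BP2. Its labelled captures read 51.0 and 35.7 CPM in G3BP2 cells, against 27.0 and 35.9 CPM without probe and 28.7 and 30.4 CPM in inputs. Only the first labelled capture stood clear of both no-probe captures. The enrichment of 0.56 ± 0.19 passed (adjusted p = 0.0187, edgeR quasi-likelihood), but not without the labelled capture replicate 1 (0.31), the input replicate 1 (0.56) or the input replicate 2 (0.64). The probe dependence of 0.50 ± 0.21 (adjusted p = 0.0478) was likewise lost without the labelled capture replicate 1 (0.25) or the no-probe replicate 1 (0.34), and was 0.78 without the labelled capture replicate 2. DDX6 cells under arsenite gave 24.1 and 27.5 CPM in labelled captures and 29.4 and 36.9 CPM in inputs, an enrichment of -0.37 ± 0.20 (adjusted p = 0.137). Exons of SMG6 share 22.92% of their bases with HIC1 on the other strand, and how reads there were credited is not given in the sources used here; HIC1 itself held 5 to 34 counts in a library, against 43 to 382 for SMG6. SMG8 likewise shares 11.25% of its exon bases with AC099850.2 on the same strand, which held 0 counts.

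Differences between baits were tested as differences of the enrichments under arsenite, and no member passed by edgeR's quasi-likelihood test without a replicate block. For DDX6 minus TIA1, 0 of 9 members passed, against 2.35% of all genes, for DDX6 minus G3BP2 0 of 9, against 0.0487%, and for TIA1 minus G3BP2 0 of 9, against 3.61%. At an unadjusted p under 0.05 there were 2 (SMG1 and SMG6), 2 (UPF1 and SMG6) and 3 (UPF1, SMG1 and SMG5), and DESeq2 called 0, 0 and 1. UPF1 came nearest, with an enrichment lower for TIA1 than for G3BP2 by a difference of -0.75 ± 0.23 (adjusted p = 0.0599), which DESeq2 called (adjusted p = 0.0381) and which passed without the TIA1 labelled capture replicate 2 (-0.96, adjusted p = 0.0387). The UPF1 inputs of these lines also differed, at 116 and 138 CPM in TIA1 cells and 96.3 and 94.1 CPM in G3BP2 cells (0.42 ± 0.17, adjusted p = 0.160), and the part of this in the difference was not tested. SMG6 differed by -0.93 ± 0.27 for DDX6 minus G3BP2 (adjusted p = 0.177) and SMG1 by -0.66 ± 0.22 for DDX6 minus TIA1 (adjusted p = 0.0989). With a block on replicate number, edgeR's test called SMG1 for DDX6 minus TIA1, and UPF1 and SMG5 for TIA1 minus G3BP2. For SMG9 the 95% intervals of the 3 differences ran from -0.37 to 0.92, from -0.41 to 0.89 and from -0.66 to 0.58, and for UPF2 from -0.36 to 0.72, from -0.31 to 0.75 and from -0.50 to 0.57, so that differences up to these sizes cannot be told from 0 with 2 libraries a group.

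Arsenite did not shift the DDX6 enrichment of any member past the threshold. By edgeR's quasi-likelihood test 0 of 9 members passed, against 0.0209% of all genes, with 0 at an unadjusted p under 0.05 and 0 by DESeq2. SMG8 had the largest difference, at an enrichment of 0.68 under arsenite and 1.20 unstressed (-0.51 ± 0.28, 95% interval -1.08 to 0.05, adjusted p = 1). The SMG8 labelled captures of the 2 conditions overlapped, at 57.6 and 71.7 CPM under arsenite and 62.0 and 67.8 CPM unstressed, whereas its inputs did not, at 33.1 and 46.7 CPM under arsenite and 28.6 and 27.8 CPM unstressed. SMG9 differed by 0.42 ± 0.32 and SMG1 by -0.40 ± 0.21.

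Total RNA of the DDX6 line gave 0 of 9 members called for arsenite over unstressed, against 1.15% of all genes, with SMG1 and SMG8 at an unadjusted p under 0.05 and 0 by DESeq2 (edgeR quasi-likelihood). SMG8 was at 0.50 ± 0.21 (adjusted p = 0.243). SMG1 stood at 118 and 138 CPM in arsenite inputs and 171 and 175 CPM in unstressed inputs, which did not overlap (-0.43 ± 0.15, adjusted p = 0.163). Since these are bulk libraries, a change in fewer cells and a change in RNA per cell cannot be told apart.

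Between the lines under arsenite, SMG9 was the member whose input passed. It was lower in DDX6 inputs, at 22.4 and 33.6 CPM, than in TIA1 inputs, at 56.9 and 49.1 CPM (-0.91 ± 0.22, adjusted p = 0.0385, edgeR quasi-likelihood; 0.877% of all genes passed). The call was lost on leaving out any of the 4 libraries, with values of -0.63 without the DDX6 input replicate 1, -1.24 without the DDX6 input replicate 2, -0.79 without the TIA1 input replicate 1 and -0.99 without the TIA1 input replicate 2. No member passed for DDX6 over G3BP2 inputs (0.787% of all genes) or TIA1 over G3BP2 inputs (4.14%), with 1 each at an unadjusted p under 0.05 (SMG9 and UPF1) and 0 by DESeq2.

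Genes that work beside the members were read from 3 companion lists. Of 8 exon junction complex genes, 2 were higher and 0 lower for TIA1, 2 higher and 2 lower for G3BP2, and 2 higher and 0 lower for DDX6 in either condition, with median enrichments of 0.43, 0.10, 0.12 and 0.10. Of all tested genes, 19.4% to 22.9% were called higher and 16.4% to 19.6% lower in these comparisons. The 2 higher genes were in each case EIF4A3, the helicase that clamps the complex on RNA (0.50 to 0.80), and ICE1, a scaffold known to help UPF3B load (0.63 to 1.06). Of 9 tested release factors and other NMD factors, 2 were higher for TIA1, 5 for G3BP2 and 5 for DDX6 in either condition, against the same shares of all genes. Lower calls occurred too: for TIA1 they included DHX34, an RNA helicase (-0.89 ± 0.26), and RUVBL2, an ATPase that acts with SMG1 (-0.86 ± 0.17), both named after their values were seen. ETF1, the release factor that reads stop codons, was higher in all 4 (0.49 to 1.28), as was PNRC2, which links UPF1 to decapping (0.89 to 1.24).

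The third list held 18 RNAs known as NMD targets. TIA1 had 2 higher and 8 lower, G3BP2 0 higher and 9 lower, arsenite-treated DDX6 1 higher and 9 lower, and unstressed DDX6 1 higher and 7 lower, against 19.4% to 22.9% higher and 16.4% to 19.6% lower among all tested genes, with median enrichments of -0.55, -0.53, -0.51 and -0.42. The snoRNA host genes SNHG12 (-3.17 to -1.18), SNHG15 (-2.04 to -0.80) and ZFAS1 (-2.56 to -0.89), whose spliced RNAs are cleared by NMD, were lower in all 4. The list was mixed: SRSF3, the mRNA of a splicing factor, was higher in 3 of 4 (0.01 to 0.67), and SRSF6, TRA2B, GADD45A and TBL2 passed in none, these 5 being named after their values were seen. Counts are per gene, so transcript forms that are NMD targets and forms that are not cannot be told apart. Among the members known as NMD targets, UPF2 was higher in all 4 enrichments, while UPF1, UPF3B, SMG1, SMG5 and SMG6 passed in at most 1 enrichment each, and no difference between these members and the list was tested. In the DDX6 inputs 5 of the 18 targets passed as higher under arsenite, against 0.362% of all genes (SNHG12, SNHG15, ATF3, GADD45B and TRA2B), where the UPF and SMG members gave 0. The list was chosen with earlier results of these data known, so this count is a description. The part of NMD in it was not tested.

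**Figure D5:**
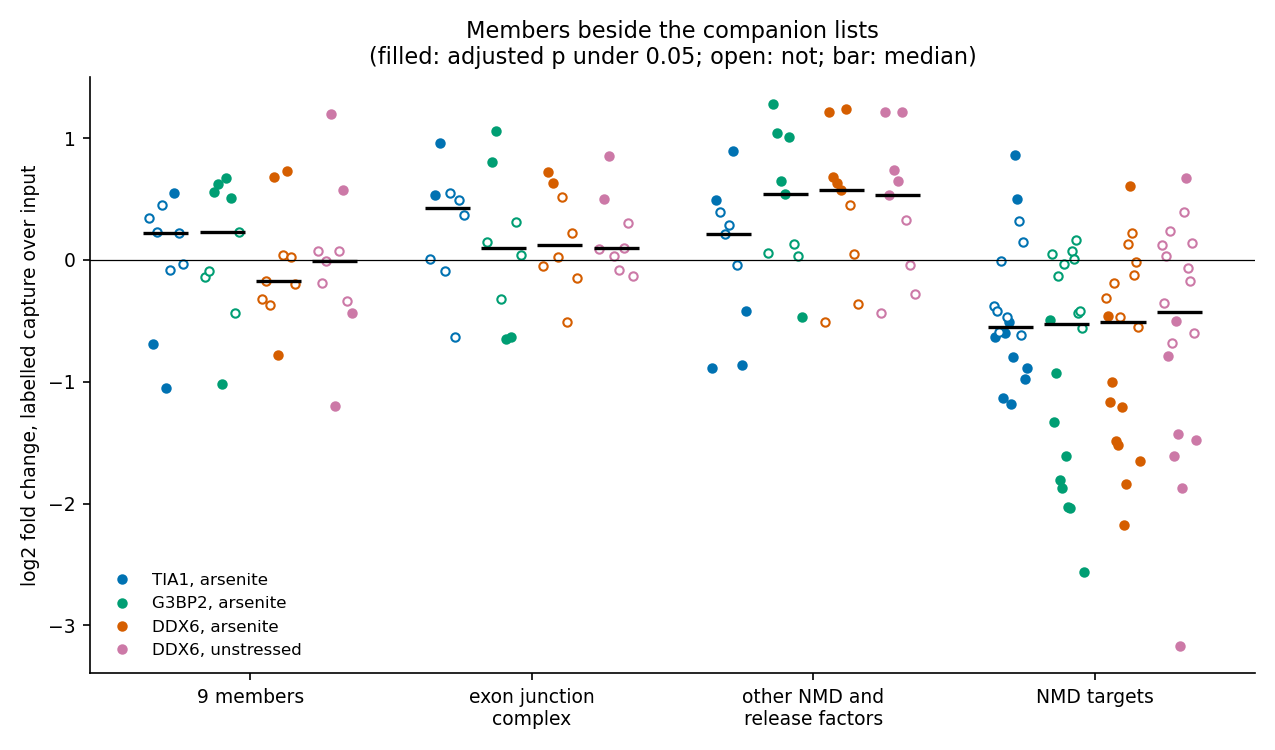
Enrichment (y axis, log2 fold change of labelled capture over input) of the 9 NMD factor mRNAs beside exon junction complex genes (8), other NMD and release factors (9 tested) and NMD targets (18), with 1 point per gene, 1 colour per combination, filled points past an adjusted p of 0.05 and bars at the medians. The medians of the 9 factors lie between -0.17 and 0.23, and those of the NMD targets between -0.55 and -0.42.

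The members lie on 7 chromosomes and share no locus. On GRCh38, UPF1 (ENSG00000005007) is on chr19:18831938-18868236 (plus strand) and SMG9 (ENSG00000105771) on chr19:43727992-43754990 (minus strand). SMG8 (ENSG00000167447) is on chr17:59209400-59215247 (plus strand) and SMG6 (ENSG00000070366) on chr17:2059839-2303771 (minus strand). UPF2 (ENSG00000151461) is on chr10:11920022-12043170 and SMG1 (ENSG00000157106) on chr16:18804853-18926454, both on the minus strand. UPF3A (ENSG00000169062) is on chr13:114281584-114305817 (plus strand), UPF3B (ENSG00000125351) on chrX:119805311-119852998 (minus strand) and SMG5 (ENSG00000198952) on chr1:156249224-156282825 (minus strand).

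The members also differ in features that the choice by name did not use. SMG9, lower in all 4 enrichments, has an annotated transcript of 5510 bases with 55.3% GC, of which 3607 bases are 3′ untranslated. SMG8 has 3477 bases in 5 exons with 47.8% GC and a 3′ untranslated stretch of 240 bases, and UPF2 5569 bases with 40.3% GC, the lowest of the 9. UPF1 has the highest GC content, 60.5%, and guanine content, 31.1%. Across 12339 tested coding genes the rank correlation of enrichment with GC content was -0.67 for TIA1, -0.39 for G3BP2, -0.61 for DDX6 under arsenite and -0.59 for unstressed DDX6, and with transcript length 0.39, 0.34, 0.19 and 0.26. With guanine content the correlation across these coding genes was -0.61, -0.3, -0.51 and -0.52 in the same order. Over the 9 members the GC correlation read -0.73, 0.07, -0.25 and -0.30, and the guanine correlation -0.72, 0.08, -0.13 and -0.43. These are descriptions across genes that share the same libraries, and the part of base composition in the members' values was not tested. UPF1 with G3BP2 (0.67 at 60.5% GC) and SMG8 and SMG9 with unstressed DDX6 (1.20 at 47.8% and -1.20 at 55.3%) show how far single members lie from each other.

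Over the 12 group means the profile of SMG8 ran most against that of SMG9, with a Pearson correlation of log2 CPM of -0.793, and UPF2 was the member most like SMG8 (0.637). Other genes were compared where they were tested, had a symbol and were not members. Among these, the profile closest to UPF2 was that of CASP8AP2 (0.973), to SMG9 that of TJAP1 (0.972), to SMG8 that of PSTPIP2 (0.932), to UPF1 that of SNRNP200 (0.956) and to SMG1 that of TET3 (0.949). The closest to SMG5 was PEF1 (0.965), to SMG6 ZZEF1 (0.923), to UPF3B B3GALNT2 (0.876) and to UPF3A GUCY1B2 (0.870). Each is the highest of the correlations with such genes, drawn from the 14360 tested, over 12 points that share library kind. They describe likeness of level only.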

How the data were processed

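The deposited table holds raw counts per Ensembl gene, whole numbers with a column per library, from Ensembl release 87 per the file headers. Per the submitters' processing notes, the authors used cutadapt 1.18, FastQC 0.11.8, HISAT2 2.1.0, SAMtools and HTSeq 0.7.2 with GRCh38. The strand setting and the treatment of reads with several places are not given in the sources used here, and the kit named in the labels is not one that keeps strand.

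Of 57992 genes 57388 matched GENCODE 29, which gave symbols, positions and transcripts, and the printed sequences were read from its transcripts. In R 4.3.3 with edgeR 4.0.16, filterByExpr kept 14360 genes. A quasi-likelihood model with 12 groups was fitted to 24 libraries (12 residual degrees of freedom, biological coefficient of variation 12.9%), with TMM scaling and two-sided tests adjusted over 14360 genes by the Benjamini-Hochberg method. SE is the log2 fold change divided by the root of F. On simulated counts for TIA1 labelled capture over input (14360 genes), 8% of genes changed 1.5-fold were recovered, 52% of those changed 2-fold and 78% of those changed 3-fold. Far fewer genes were changed there than were called in the data (19.4% higher and 16.4% lower for TIA1). The adjusted threshold was therefore stricter in the simulation, and these shares do not give the recovery in the real comparisons. Replicates correlated with r of 0.926 to 0.989, and in no group were the columns of the 2 replicates identical.

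All 9 members are named in every comparison. Of the companion lists, up to 3 genes per direction that passed in all 4 enrichments are named, ordered by median; the arsenite-responsive targets were named after their values were seen. An item among the release factors and other NMD factors is not reported here, so the lower calls of that list are not counted. The members and lists were chosen with earlier results of these data known. Alternatives tried were total-count and DESeq2 (1.42.0) scaling, the DESeq2 Wald test, no filter on low counts, a replicate block, fits on only the libraries compared, a trend on exon length removed, and each library left out.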

Additional observations from a re-analysis of the deposited data

How the results depend on the processing

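Scaling to total counts by construction lifted the median of all genes by 0.46 to 0.65 (log2) in enrichment and by 0.30 to 0.84 in probe dependence. Counts of members then were 7 higher and 0 lower for TIA1 in both comparisons. In enrichment they were 6 higher and 0 lower for G3BP2, 3 higher and 0 lower for DDX6 under arsenite, and 4 higher and 1 lower for unstressed DDX6. In probe dependence they were 1 lower for G3BP2, and 5 higher and 0 lower for DDX6 under arsenite. Here and below, other counts that changed little or not at all are not given. Among values called with either scaling, the sign turned for the enrichment of UPF1 (0.58) and UPF3B (0.62) with TIA1. It also turned for the enrichment of SMG5 with G3BP2 (0.45) and UPF3B with unstressed DDX6 (0.02). The TIA1 probe dependence of UPF1 (0.66), UPF3A (0.60) and SMG5 (0.12) turned as well. Values called with neither scaling can also turn in sign and are not listed. The arsenite input comparison then called 1 member (SMG1, -0.64) and the DDX6 over TIA1 inputs 0.

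The cause of the other changes was not tested. With no filter on low counts, TIA1 enrichment called 3 higher and 1 lower, unstressed DDX6 enrichment 1 lower and G3BP2 probe dependence 1 lower. The DESeq2 Wald test called 2 higher in G3BP2 enrichment (UPF2 and SMG6 were lost), 1 higher in TIA1 probe dependence, 2 lower in probe dependence for DDX6 under arsenite, 1 in G3BP2 background and 1 in TIA1 minus G3BP2. DESeq2 size factors gave 2 lower in probe dependence for DDX6 under arsenite. Fits on only the libraries compared gave 1 higher in both comparisons for DDX6 under arsenite, 1 lower in G3BP2 and 2 lower in unstressed DDX6 probe dependence, 1 in G3BP2 background, 1 in TIA1 minus G3BP2, 0 in DDX6 over TIA1 inputs and 1 in TIA1 over G3BP2 inputs.

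Replicate numbers were not taken as pairs, since deviations of same-numbered labelled captures and inputs correlated at 0.17 for TIA1, 0.04 for G3BP2, 0.39 for DDX6 under arsenite and 0 for unstressed DDX6. For DDX6 under arsenite the other pairs of kinds were also above 0.1 (0.26 with the no-probe captures for labelled captures and 0.20 for inputs), while elsewhere they lay between -0.03 and 0.07. With a replicate block, TIA1 enrichment called 3 higher, probe dependence for DDX6 under arsenite 2 lower, G3BP2 background 1, DDX6 minus TIA1 1 (SMG1) and TIA1 minus G3BP2 2 (UPF1 and SMG5).

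With each library left out in turn, counts ranged in enrichment from 0 to 1 higher and 1 to 2 lower for TIA1, 1 to 4 and 1 to 1 for G3BP2, 1 to 2 and 0 to 1 for DDX6 under arsenite, and 1 to 2 and 1 to 2 for unstressed DDX6. In probe dependence they were 1 to 2 and 1 to 2, 3 to 4 and 1 to 2, 2 to 3 and 0 to 2, and 1 to 2 and 1 to 1 in the same order. TIA1 minus G3BP2 gave 0 to 1, DDX6 over TIA1 inputs 0, and every other comparison 0. Where a group keeps 1 library, that library is assumed to vary like the other groups. Of 864 member values from these fits, 826 kept their call as higher, lower or neither. A value called in neither fit counts as kept even where its sign turned. With total counts 149 of 180 values kept their call, and 7 that were called in at least 1 of the fits reversed in sign. The call was kept by 170 of 180 with only the libraries compared and 174 of 180 without the filter. It was kept by 178 of 180 with DESeq2 size factors, 171 of 178 with the DESeq2 Wald test and 172 of 180 with the block. Removing a trend on exon length, which carries no test, moved 34 of 180 values by more than their SE.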
